A study of Homo sapiens with 15 samples.

Results

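The genes described here are 10 components of the HSP90 chaperone machinery that folds and holds steroid receptors, among them FKBP5. They were taken by symbol (FKBP5, FKBP4, HSP90AA1, HSP90AB1, PTGES3, STIP1, HSPA4, DNAJA1, ST13 and BAG1), and all 10 were found among the 17272 genes of the expression table. The study sequenced polyadenylated RNA of LNCaP cells, an androgen-sensitive human prostate cancer line, to ask how enzalutamide, an inhibitor of androgen signalling, alters the transcriptome of androgen-treated cells. By the sample labels, 10 libraries are from cells given 1 nM of the synthetic androgen R1881 with the solvent DMSO. The other 5 libraries are from cells given 1 nM R1881 and enzalutamide. The labels read high enzalutamide, and the methods give 2 µM. In both groups the cells spent 2 days in medium with charcoal-stripped serum before the treatment and were harvested 22 h after it. All 15 libraries thus received R1881, and a level without androgen was not part of the comparison. The methods speak of biological replicates, but neither they nor the labels say whether these are separate cultures, so the p-values measure the spread between these libraries, which may be partly technical. One cell line at a single time was sampled, and in bulk RNA a smaller number of expressing cells and less RNA per cell cannot be told apart.

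A steroid receptor reaches its hormone-binding form through a relay of chaperones. HSP70 with its HSP40 partner takes up the newly made receptor, HOP (STIP1) passes it from HSP70 to HSP90, and p23 (PTGES3) and an immunophilin of the FKBP type join the mature complex. FKBP51 (FKBP5) and FKBP52 (FKBP4) compete for the same place on HSP90, and FKBP5 is a classical target of androgens, glucocorticoids and progestins, so that its transcript is read as a gauge of steroid signalling in prostate cells.

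The expression values are the CPM deposited by the authors, that is reads counted on a gene relative to the size of its library. Between 15830745 and 25416052 reads per library lay behind them. Library sums of these values lay at 1053406 to 1078567 for R1881 and at 985580 to 1008992 for R1881 + enzalutamide, so the scaling was not by plain totals. Setting each total to 1000000 moved the log2 fold changes of the 10 genes up by about 0.09, and those of genes with few reads by less. The androgen-induced check genes KLK2, KLK3, TMPRSS2 and STEAP4 were all lower with enzalutamide, with KLK3, which encodes PSA, at 1588 ± 209 CPM (SD, n = 10) and 134 ± 7.66 CPM (n = 5). The 6 luminal prostate markers KLK3, FOLH1, HOXB13, KRT8, KRT18 and EPCAM had a summed level of 4764 to 5914 CPM with R1881 and 2605 to 2658 CPM with enzalutamide. They did not move together, since KLK3, KRT8 and KRT18 were lower and FOLH1, HOXB13 and EPCAM higher at an adjusted p under 0.05 by limma. Of 3 basal markers KRT14 alone had a row, at most 1.44 CPM in any library, while the summed stromal markers (3 of 5 with a row) reached 8.00 to 12.3 and 12.8 to 18.0 CPM, and VWF, the sole blood and endothelium marker with a row of 6, reached 2.08 to 2.84 and 2.84 to 3.35 CPM. The part of these markers in the results was not tested. Single libraries stood low in many of the 10 genes: R1881 replicate 6 was the lowest of its group in 8 of them, and R1881 + enzalutamide replicate 2 was the lowest of its group in 6. In the labels they carry the numbers 73 and 83. Leaving out both libraries moved PTGES3 most, from -0.48 to -0.45 on the log2 scale, and it changed the call of HSP90AB1 alone (adjusted p = 0.0791 by limma).

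With enzalutamide, 8 of the 10 chaperones were lower at an adjusted p under 0.05 by limma, none was higher and 2 were not called. Over all 17046 genes tested, 32.7% were called lower and 29.8% higher. The median log2 fold change of the 10 genes was -0.19, beside -0.01 over all genes tested, and it was -0.18 without FKBP5. Over the 12164 genes with a mean of at least 5 CPM the median was -0.05. The shares of all genes take in genes down to a mean of 0.5 CPM and are not matched in level to the 10. At library totals of 1000000 the median of the 10 was -0.10, beside 0.07 over all genes tested. In 6 of the 10 genes (FKBP5, FKBP4, PTGES3, STIP1, DNAJA1 and BAG1) every library with enzalutamide lay below every library with R1881, which held for 20.1% of all genes tested. FKBP5 was the sole chaperone of the 10 that was lower by 2-fold or more, a size of decrease called in 4.19% of genes. With library totals set to 1000000, 6 of the 10 were called lower and none higher, FKBP4 and HSP90AB1 were no longer called, and 25.2% of all genes were called lower. Of all calls, 52.3% were lower with the deposited scaling and 39.3% with equal totals. On the recovered reads 7 of the 10 were lower with edgeR (29.0% of all genes lower) and with DESeq2 (31.4% of all genes lower), both of which left HSP90AB1 uncalled.

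**Figure D1:**
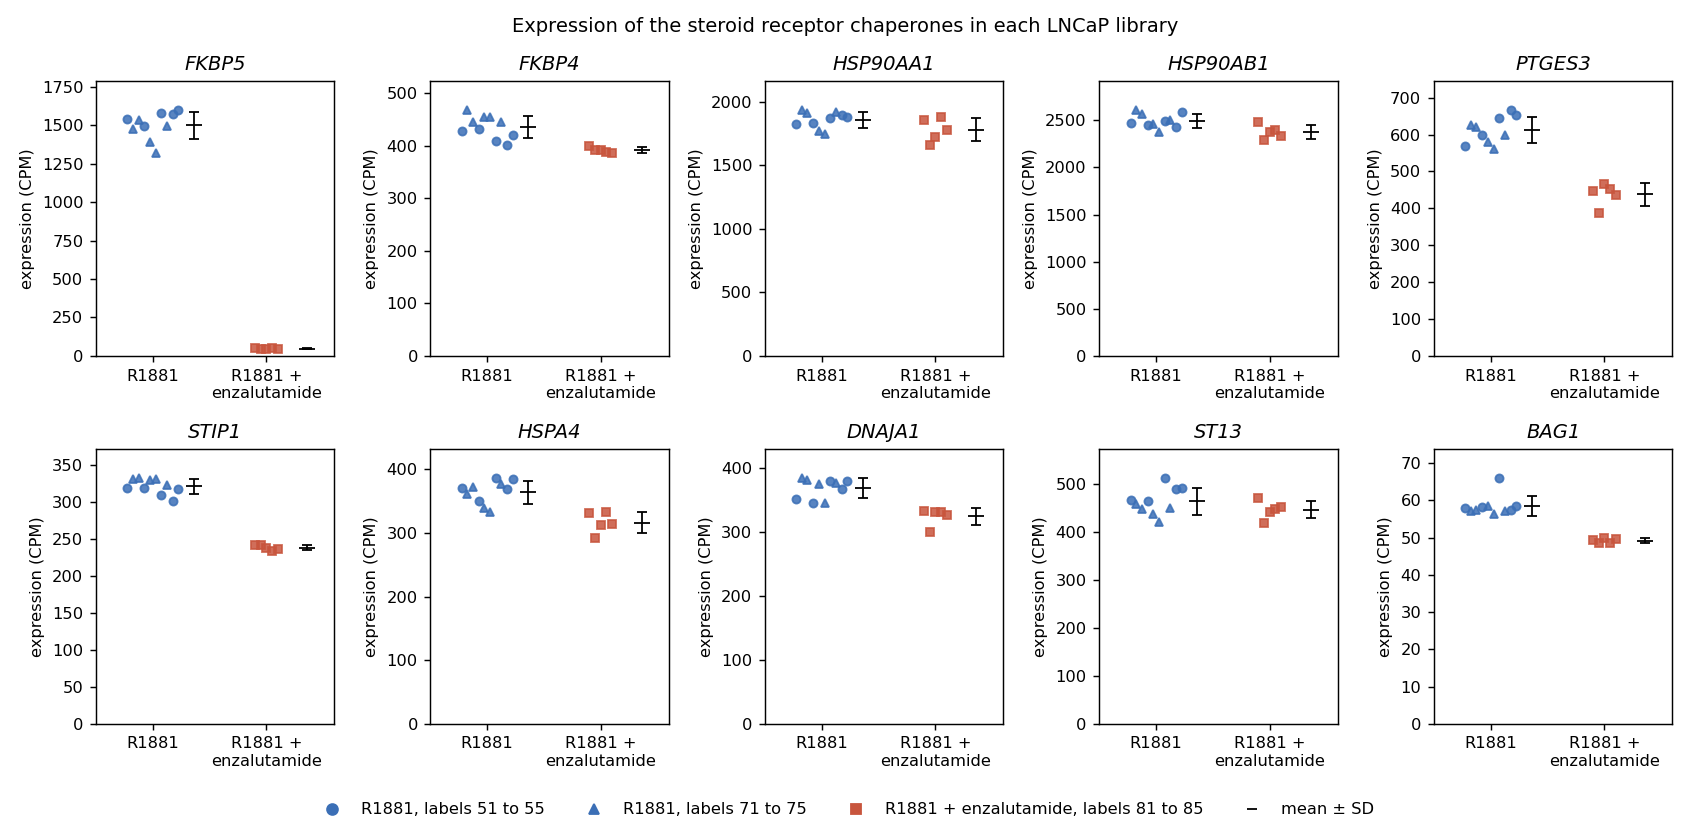
Expression of each of the 10 chaperones in CPM (vertical axes from 0) in each of the 10 R1881 and 5 R1881 + enzalutamide libraries, with the mean and SD beside the points; symbols mark the number series in the labels. FKBP5 dropped from 1324 to 1597 CPM to 43.3 to 50.1 CPM, whereas for each of the other 9 genes the means of the treatments stayed within 1.5-fold of each other.

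FKBP5, which encodes the immunophilin FKBP51, had a far lower transcript level with enzalutamide. Its level with R1881 ranged from 1324 to 1597 CPM over 10 libraries with a median of 1516 CPM. With R1881 + enzalutamide the 5 libraries gave 49.2, 43.7, 43.3, 50.1 and 47.7 CPM. The groups were far apart, and the libraries within each group were close to each other. The mean of 1502 ± 87.4 CPM (SD, n = 10) fell to 46.8 ± 3.11 CPM (n = 5), which is 32.1-fold lower and a decrease of the median by 96.9%. On the log2 scale the change was -4.99, with a standard error (SE) of 0.05 and an adjusted p = 1.66e-25 by limma, and 5 of the 17046 genes tested had a lower one. The mean dropped by 1455 CPM, the 4th largest decrease of the 17272 genes. The remaining level was well measured, with 940 to 1217 reads per library on FKBP5 with enzalutamide, against 21820 to 35728 with R1881. The size of the change hardly moved with the analysis, since leaving out any library gave -5.01 to -4.96, library totals set to 1000000 gave -4.90, and edgeR on the recovered reads gave -4.96.

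The gene lies on the reverse strand of chromosome 6 (chr6:35573585-35728583, GRCh38), where its canonical transcript has 11 exons. The palindromic androgen response element (AGAACA, 3 bases of any kind, TGTTCT) was searched on both strands. It occurred once within FKBP5, in intron 5 at chr6:35602082-35602096, 126 kb downstream of the gene start. The stretch is shown, read on the forward strand of GRCh38, because FKBP5 was the sole one of the 10 genes with a match in the gene or within 100 kb of it, and the capitals mark the match.
FKBP5 intron 5: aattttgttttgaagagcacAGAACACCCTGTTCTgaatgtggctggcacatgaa
A match in the gene was present in 1.28% of the 13645 tested genes that could be placed in the annotation, and in 3.81% of the 893 genes of 0.8 to 1.25 times the length of FKBP5. Within 100 kb of the gene it was present in 4.62%. A match describes letters and is not evidence of binding.

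The genes whose pattern over the 15 libraries was most like that of FKBP5 (smallest root-mean-square difference of centred log2 values, of 12163 genes with a mean of at least 5 CPM) were NCAPD3, TTN, HPGD, PGC and ORM1. NCAPD3, a condensin II subunit, was the nearest at 0.14 and went from 1907 to 72.2 CPM. TTN fell from 14.8 to 0.07 CPM, HPGD, which inactivates prostaglandins, from 28.5 to 0.51 CPM, PGC from 21.9 to 0.30 CPM and ORM1 from 15.6 to 0.09 CPM. For these 4 genes the values with enzalutamide lie near or under the pseudocount of 0.5, so their likeness to FKBP5 depends on it. The other 9 chaperones ranked between 1629 and 5854 in likeness, in the same order as their log2 fold changes. The measure thus largely restates the size of the change with enzalutamide.

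FKBP4, the immunophilin FKBP52, binds the same HSP90 site and is known to raise steroid receptor activity. It ranged from 401 to 467 CPM with R1881 (median 439 CPM) and gave 399.7, 392, 393, 388 and 385 CPM with enzalutamide. The highest value with enzalutamide was only just under the lowest value with R1881. The means were 436 ± 21.3 and 391 ± 5.50 CPM, a log2 fold change of -0.15 (SE 0.03, adjusted p = 0.000591 by limma). With library totals set to 1000000 the log2 fold change was -0.06 and was not called (adjusted p = 0.137). FKBP4 lies on the forward strand of chromosome 12 (chr12:2794970-2805423), where some of its exons overlap antisense non-coding RNAs that have no row in the table.

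The balance of the 2 immunophilins does not depend on the scaling, because both values come from the same library. The log2 ratio of FKBP5 to FKBP4 was 1.78 ± 0.15 with R1881 and -3.07 ± 0.10 with enzalutamide, a difference of -4.85 (two-sided exact permutation test over 3003 regroupings, p = 0.000333, the smallest it allows, and 0.000555 adjusted over 5 ratios). The mean log2 ratio was 1.90 in R1881 libraries labelled 51 to 55 and 1.67 in those labelled 71 to 75. Per kilobase of exons, the ratio of their levels was 1.68 ± 0.17 with R1881 and 0.0581 ± 0.00401 with enzalutamide. FKBP5 was thus the more abundant of both transcripts in every R1881 library and the less abundant in every library with enzalutamide. With the shorter canonical transcripts as lengths the ratio was 3.43 and 0.118.

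**Figure D2:**
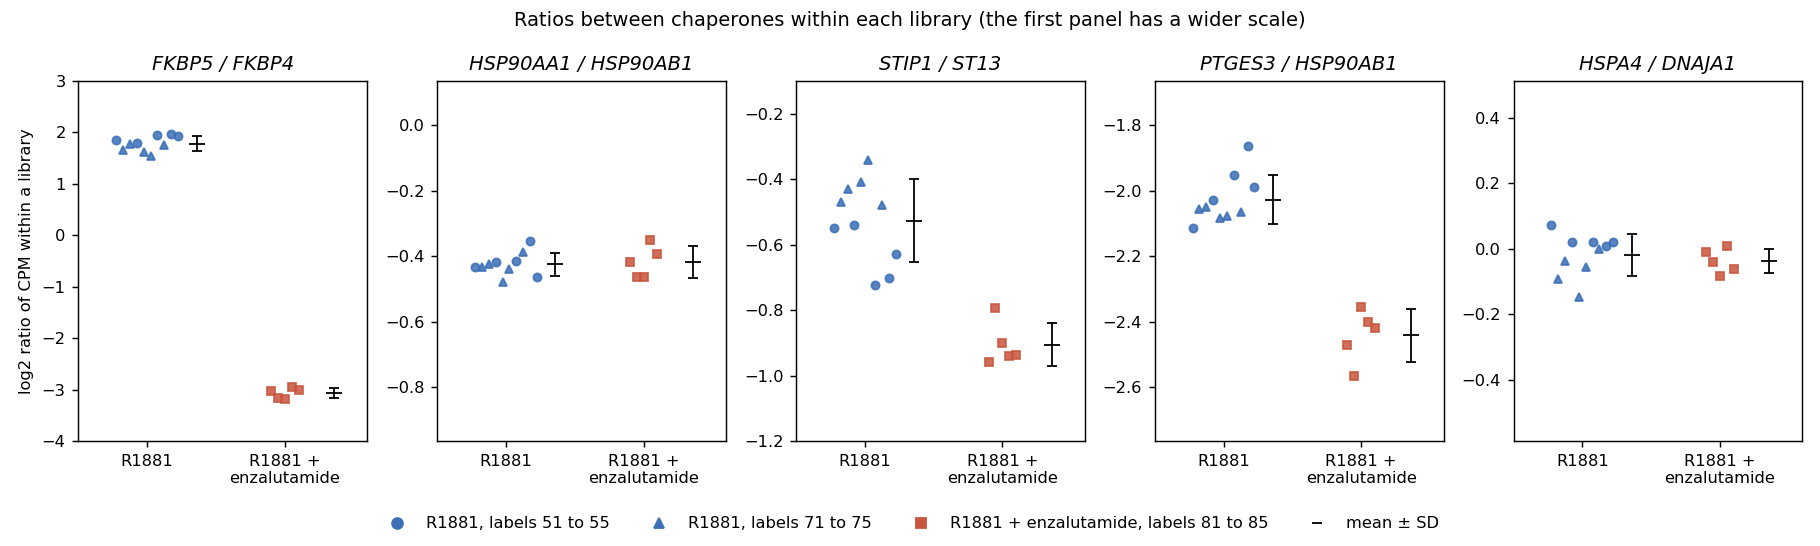
Log2 ratio of CPM between pairs of chaperones within each library (vertical axes; wider for the first panel), with mean and SD, by treatment and label series. The treatments separate for FKBP5 over FKBP4, STIP1 over ST13 and PTGES3 over HSP90AB1, and overlap for HSP90AA1 over HSP90AB1 and HSPA4 over DNAJA1.

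The 2 cytosolic HSP90 genes changed little. HSP90AA1, the stress-inducible form, ranged from 1749 to 1930 CPM with R1881 (median 1877 CPM), and the 5 libraries with enzalutamide gave 1858, 1662, 1723, 1879 and 1774 CPM. HSP90AB1, the constitutive form, ranged from 2371 to 2605 CPM (median 2481 CPM), and the libraries with enzalutamide gave 2484, 2290.3, 2378, 2398 and 2329 CPM. For either gene 2 of the 5 libraries with enzalutamide lay below all R1881 libraries and the others lay among them. The log2 fold change of HSP90AA1 was -0.06 (95% confidence interval -0.13 to 0.01, adjusted p = 0.110 by limma). That of HSP90AB1 was -0.07 (-0.13 to -0.01, adjusted p = 0.0457 by limma). The call of HSP90AB1 was not stable, as it held in 5 of 15 fits that left out a library, was lost with edgeR (adjusted p = 0.396) and DESeq2 (adjusted p = 0.0683), and the sign turned to 0.02 with library totals set to 1000000, where HSP90AA1 stood at 0.03. The log2 ratio of HSP90AA1 to HSP90AB1 was -0.42 ± 0.04 with R1881 and -0.42 ± 0.05 with enzalutamide, a difference of 0.01 (exact permutation p = 0.786).

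HSP90AB1 lies at chr6:44246166-44253888 on the forward strand, and HSP90AA1 at chr14:102080742-102139699 on the reverse strand, where 197 exon bases overlap WDR20 on the other strand (25.3 and 23.0 CPM). Reads of both genes are hard to assign, since their processed pseudogenes, read as their own rows, summed to 342 CPM (18.6% of HSP90AA1, 4 rows) and 553 CPM (22.5% of HSP90AB1, 4 rows). With these rows added, the log2 fold changes were -0.07 for both, with an adjusted p of 0.0993 for HSP90AA1 and 0.0571 for HSP90AB1 by limma.

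HSP90 and HSP40 genes are known targets of heat shock factor. The heat shock element was searched as TTC, 2 bases of any kind, GAA, 2 bases of any kind and TTC on both strands in the RefSeq promoter windows (GRCh38.p14, 250 bases before to 50 after a start, 13 windows for 8 of the 10 genes), and it was present in 3 of the 13 windows (1 each of 3 genes), and in 0.490% of all 35116 windows. The stretches with a match are shown for these 3 genes in the direction of transcription, with the matches in capitals. They are chr14:102087045-102087194 on the reverse strand, chr6:44247743-44247892 on the forward strand and chr9:33025265-33025294 on the forward strand.
HSP90AA1: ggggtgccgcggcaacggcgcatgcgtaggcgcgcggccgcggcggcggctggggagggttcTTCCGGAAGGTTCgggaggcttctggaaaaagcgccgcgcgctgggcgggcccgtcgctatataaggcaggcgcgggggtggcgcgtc
HSP90AB1: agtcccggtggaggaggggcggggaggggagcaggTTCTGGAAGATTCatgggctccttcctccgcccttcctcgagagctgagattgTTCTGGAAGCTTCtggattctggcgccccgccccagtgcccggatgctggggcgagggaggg
DNAJA1: cgcgccgggcgGAACTTTCCAGAAcgctcg
The match of HSP90AA1 began 88 bases before the transcript start of its window, and those of HSP90AB1 165 and 112 bases before theirs. That of DNAJA1 began at base 4 after the start. For HSP90AA1 and HSP90AB1 these starts lie inside the gene as annotated here. Their other windows, among them those at the gene start, held no match. The 3 genes with a match had log2 fold changes of -0.06, -0.07 and -0.18, which lie inside the range of the other members. No window of the 8 genes held the full androgen response element, which was present in 0.00285% of all windows. Its TGTTCT hexamer alone, searched on both strands and present in 14.8% of windows, occurred in windows of FKBP5, HSPA4 and HSP90AB1, where it overlaps a heat shock match.

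PTGES3 and STIP1 had the lowest log2 fold changes after FKBP5. PTGES3 encodes p23, which closes HSP90 around the receptor. It ranged from 561 to 665 CPM with R1881 (median 609 CPM), and the 5 libraries with enzalutamide gave 448, 387, 465, 454 and 436 CPM. The groups did not overlap, and replicate 2 was the lowest with enzalutamide. The means were 612 ± 35.9 and 438 ± 30.4 CPM, and the log2 fold change was -0.48 (SE 0.05, adjusted p = 9.38e-09 by limma).

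STIP1 encodes HOP, which bridges HSP70 and HSP90. Its level was 302 to 332 CPM with R1881 (median 321 CPM), and 242, 242, 237, 234 and 236 CPM with enzalutamide. The 5 values with enzalutamide were nearly equal and lay under all values with R1881. The means were 322 ± 10.1 and 238 ± 3.65 CPM, a log2 fold change of -0.43 (SE 0.03, adjusted p = 3.02e-11 by limma). With library totals set to 1000000 the decreases were -0.39 for PTGES3 and -0.34 for STIP1 on the log2 scale, and both were called.

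Within libraries, PTGES3 fell relative to HSP90AB1 by 0.41 on the log2 scale, from -2.03 ± 0.07 to -2.44 ± 0.08 (exact permutation p = 0.000333, 0.000555 adjusted over 5 ratios). STIP1 fell relative to ST13, another cochaperone of HSP70, by 0.38, from -0.53 ± 0.13 to -0.91 ± 0.07 (exact permutation p = 0.000333, 0.000555 adjusted). In R1881 libraries labelled 51 to 55 and 71 to 75 alone, STIP1 over ST13 averaged -0.63 and -0.43, and PTGES3 over HSP90AB1 -1.99 and -2.07. The size of the fall of STIP1 over ST13 therefore depends on the series. In both ratios all 5 libraries with enzalutamide lay below all 10 with R1881. The transcript of p23 thus fell relative to that of its partner HSP90, and that of HOP relative to that of HIP. PTGES3 lies at chr12:56663341-56688408 on the reverse strand and STIP1 at chr11:64185272-64204543 on the forward strand. Pseudogene rows of PTGES3 (3 rows) summed to 63.5 CPM, 11.5% of PTGES3, and went from 70.5 CPM with R1881 to 49.6 CPM with enzalutamide, and STIP1 has a single such row at 6.37% of its level.

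The members of the HSP70 cycle were lower by smaller amounts. DNAJA1, an HSP40 that loads clients on HSP70 and stimulates its ATPase, ranged from 346 to 384 CPM with R1881 (median 377 CPM) and gave 333, 300.3, 331, 332 and 328 CPM with enzalutamide. HSPA4, an HSP110 that exchanges the nucleotide of HSP70, ranged from 332 to 386 CPM (median 369.9 CPM) and gave 331, 292, 312, 334 and 314 CPM with enzalutamide. The groups of DNAJA1 did not overlap, while for HSPA4 replicate 4 with enzalutamide reached above the lowest R1881 library. The log2 fold change was -0.18 for DNAJA1 (SE 0.04, adjusted p = 0.000117 by limma) and -0.20 for HSPA4 (SE 0.04, adjusted p = 0.000169 by limma). With library totals set to 1000000 they were -0.09 and -0.11, and both were called. Replicate 2 with enzalutamide was the lowest in both genes, and the calls held without it. The log2 ratio of HSPA4 to DNAJA1 was -0.02 ± 0.06 with R1881 and -0.04 ± 0.04 with enzalutamide (exact permutation p = 0.582, 0.728 adjusted).

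BAG1, a nucleotide exchange factor of HSP70, had the lowest level per kilobase of the 10 with R1881. It ranged from 56.3 to 65.9 CPM with R1881 (median 57.8 CPM), and the 5 libraries with enzalutamide gave 49.4, 48.6, 50.0, 48.5 and 49.7 CPM. The groups did not overlap, and a single R1881 library, replicate 7, stood above the rest of its group. The log2 fold change was -0.25 (SE 0.04, adjusted p = 7.18e-06 by limma), and it was -0.15 with library totals set to 1000000, where it was also called. A count per gene does not separate the BAG1 isoforms.

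ST13, known as HIP, steadies HSP70 in its client-bound form. It ranged from 420.3 to 512 CPM with R1881 (median 461 CPM), and with enzalutamide the libraries gave 471, 419.9, 443, 449 and 452 CPM. The groups overlapped widely, with 1 library of 5 below all R1881 libraries. The log2 fold change was -0.05 (95% confidence interval -0.14 to 0.03, adjusted p = 0.278 by limma), and it was 0.04 with library totals set to 1000000. ST13 was the member most exposed to copies, as 10 pseudogene rows summed to 259 CPM, 56.6% of its own level. DNAJA1 (chr9:33025273-33039907, forward strand) and BAG1 (chr9:33247820-33264720, reverse strand) are 207912 bases apart, HSPA4 lies at chr5:133052013-133106449 on the forward strand and ST13 at chr22:40824535-40856639 on the reverse strand.

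**Figure D3:**
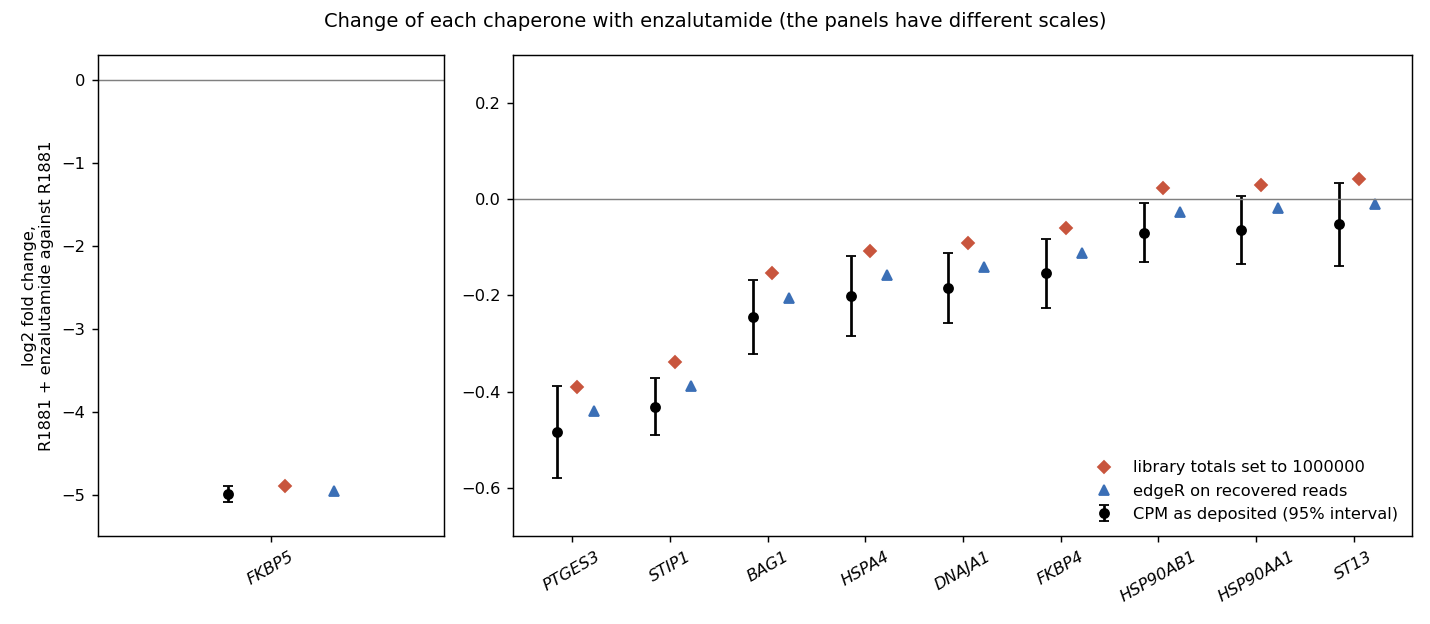
Log2 fold change of each chaperone, R1881 + enzalutamide against R1881, with its 95% confidence interval by limma on the deposited CPM (circles), with library totals set to 1000000 (diamonds) and by edgeR on the recovered reads (triangles). FKBP5 sits near -4.99 on a scale of its own, PTGES3 and STIP1 lie between -0.48 and -0.34 under all 3, and the signs of HSP90AB1, HSP90AA1 and ST13 turn with the scaling.

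The R1881 libraries carry the numbers 51 to 55 and 71 to 75, and all 5 enzalutamide libraries carry 81 to 85, without a stated meaning. The series of a library and its treatment therefore cannot be told apart. The 2 R1881 series served as a scale for differences without enzalutamide. Between the series, 3.29% of 16810 genes were called by limma, and none of the 10 chaperones was. At an unadjusted p under 0.05 there were 4 (FKBP5, FKBP4, STIP1 and ST13), and edgeR called 2. FKBP5 was 0.11 lower on the log2 scale in series 71 to 75 at 1444 ± 85.9 CPM, against 1559 ± 38.7 CPM (adjusted p = 0.118 by limma). The log2 difference was 0.12 for FKBP4 (adjusted p = 0.0562) and -0.13 for ST13 (adjusted p = 0.0560), also by limma. The difference between series was larger than the change with enzalutamide for ST13 (-0.05) and somewhat smaller for FKBP4 (-0.15). Set against each series alone, which share the enzalutamide libraries, ST13 had a log2 fold change of -0.12 with series 51 to 55 (adjusted p = 0.0114) and 0.01 with series 71 to 75 (adjusted p = 0.774), and FKBP4 had -0.10 (adjusted p = 0.0158) and -0.21 (adjusted p = 1.95e-05), all by limma.

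Compared per kilobase of exons, the order of the 10 transcripts with R1881 was HSP90AB1 (837 CPM per kb), HSP90AA1 (365), PTGES3 (180.0), FKBP5 (141), DNAJA1 (138), ST13 (123), FKBP4 (84.5), HSPA4 (71.8), STIP1 (69.9) and BAG1 (8.27). The libraries of FKBP5 and DNAJA1 overlapped, as did those of DNAJA1 and ST13 and of HSPA4 and STIP1. With enzalutamide the order of the 9 genes other than FKBP5 was unchanged in this measure, with overlap between PTGES3 and DNAJA1 and between DNAJA1 and ST13. With canonical transcript lengths STIP1 went from above ST13 (150 and 144 CPM per kb) to below it (111 and 139). Per kilobase of exons FKBP5 moved from place 4 to place 10, at 4.40 CPM per kb. Its share of the summed level per kilobase went from 6.997% to 0.256%, or from 13.6% to 0.543% with canonical transcript lengths, where its place with R1881 was 3. The summed level itself went from 2019 ± 58.9 to 1717 ± 59.4 CPM per kb. FKBP5 amounted to 0.118 of the level of both HSP90 genes with R1881 and to 0.00384 with enzalutamide (0.258 and 0.00842 with canonical lengths).

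**Figure D4:**
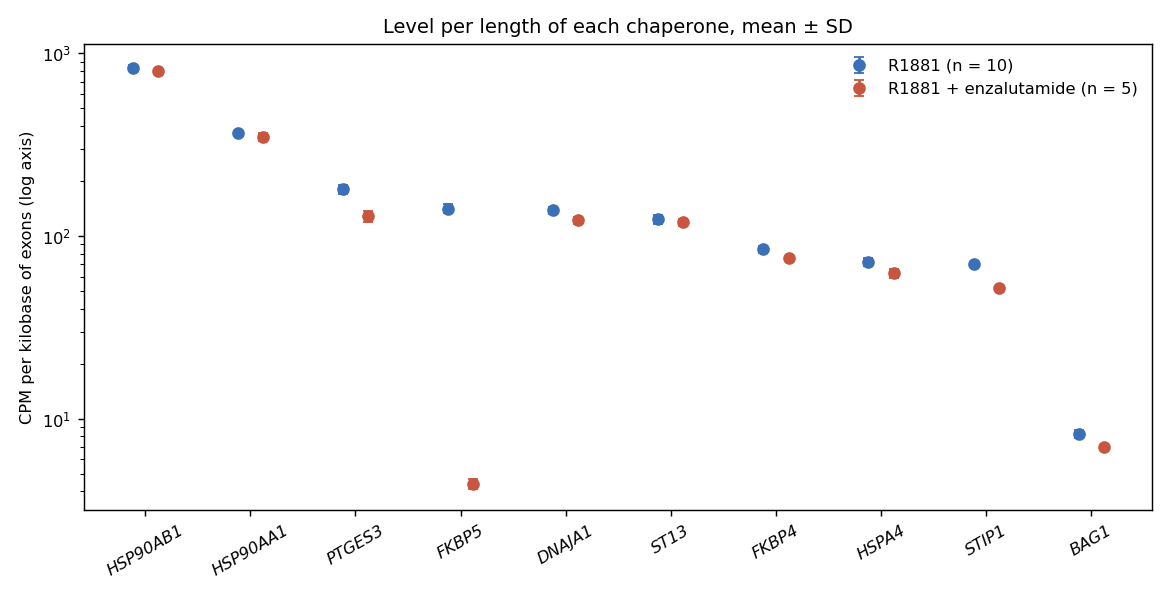
CPM per kilobase of exons (logarithmic vertical axis) of the 10 chaperones, mean and SD over 10 R1881 and 5 R1881 + enzalutamide libraries, ordered by the level with R1881. FKBP5 goes from 141 to 4.40 CPM per kb, while the other 9 keep their order from HSP90AB1 (837 and 797) to BAG1 (8.27 and 6.96).

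The rest of the chaperone system was described by lists of known families. The lists held 118 tested genes in all, of which 71 were called lower (60.2%), 16 higher (13.6%), and 1 was lower by 2-fold or more. Their median log2 fold change was -0.19. Setting library totals to 1000000 gave 54 lower and 24 higher, with a median of -0.09. Over all 17018 genes tested at these totals the median was 0.07, with 4288 called lower and 6629 higher. The list with the most uniform direction was that of endoplasmic reticulum chaperones and related genes, not all of them chaperones. Of these, 19 of 19 were lower under either scaling, with a median of -0.54 as deposited and -0.45 with library totals set to 1000000. The list was drawn up with earlier results known, and FKBP9 and SERPINH1, which also reside in this compartment but stand in other lists, were higher. DNAJB9, an ER-resident HSP40, went from 66.0 ± 6.95 to 22.7 ± 1.87 CPM (log2 fold change -1.52, adjusted p = 5.78e-14 by limma). DNAJC3 had a log2 fold change of -0.88, HERPUD1 -0.87, and HSP90B1, the HSP90 of the endoplasmic reticulum, -0.41 (1278 to 962 CPM).

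Of the other HSP90 cochaperones, 20 of 38 were lower and 6 higher, with a median of -0.11, and with library totals set to 1000000 the counts were 12 and 10 and the median -0.01. CDC37, which recruits kinases to HSP90, went from 121 ± 12.1 to 87.0 ± 8.09 CPM (log2 fold change -0.48), and FKBPL had -0.44 and FNIP2 -0.43. On the other side AHSA2, a relative of the HSP90 activator AHSA1 that is now classed as a pseudogene (AHSA2P), went from 13.7 ± 1.31 to 22.0 ± 2.05 CPM (0.67), and the HSP90 cochaperones FLCN and TSC1 had 0.40 and 0.38. Of the other FKBP immunophilins, 6 of 11 were lower and 1 higher, with a median of -0.13, and with library totals set to 1000000 there were 3 and 3, with a median of -0.04. FKBP11 had -0.54 and FKBP2 -0.50, both of the secretory pathway, while FKBP9 rose from 39.9 ± 1.74 to 60.1 ± 3.22 CPM (0.58). The lowest log2 fold change among these genes was thus -0.54, against -4.99 for FKBP5. All genes named in these lists had an adjusted p under 0.05 by limma with each library left out in turn.

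Of the other HSP70 and HSP110 genes, 7 of 13 were lower and 3 higher (median -0.14), and of the other HSP40 genes 9 of 11 and 1 (median -0.22). At library totals of 1000000 these were 6 and 4 (median -0.05) and 6 and 1 (median -0.12). HSPA13 went from 82.0 to 44.2 CPM (-0.89) and HYOU1, the HSP110 of the endoplasmic reticulum, from 438 to 295 CPM (-0.57). HSPA4L, the nearest paralog of HSPA4, rose from 18.7 ± 1.90 to 36.0 ± 1.32 CPM (0.93), in the opposite direction to HSPA4. Among nucleotide exchange factors 5 of 9 were lower and 2 higher (median -0.30), with BAG3, a member of the BAG family that acts in stress, at -0.47 and BAG4 at 0.42. Of the chaperonin and prefoldin subunits, which fold actin and tubulin, 10 of 14 were lower and 1 higher (median -0.20), led by TCP1 at -0.47. At library totals of 1000000 the exchange factors had 5 and 2 (median -0.21) and the chaperonin and prefoldin subunits 8 and 2 (median -0.11).

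The list named for the cytosolic heat shock response had no uniform direction, with 8 of 17 lower, 4 higher and a median of -0.04. With library totals set to 1000000 it had 5 and 5, with a median of 0.05. It also holds genes of other compartments, among them HSPE1 and SERPINH1. HSPE1, the mitochondrial chaperonin partner, and HSPH1 were lower (-0.41 and -0.35), and HSPB8, a small heat shock protein, and SERPINH1, the collagen chaperone, were higher (1.21 and 1.09), the latter from 0.841 CPM. Of HSF1, HSF2, HSF4 and HSBP1, a binding protein of heat shock factors, none was called by limma, edgeR or DESeq2, and 1 had an unadjusted p under 0.05 by limma.

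**Figure D5:**
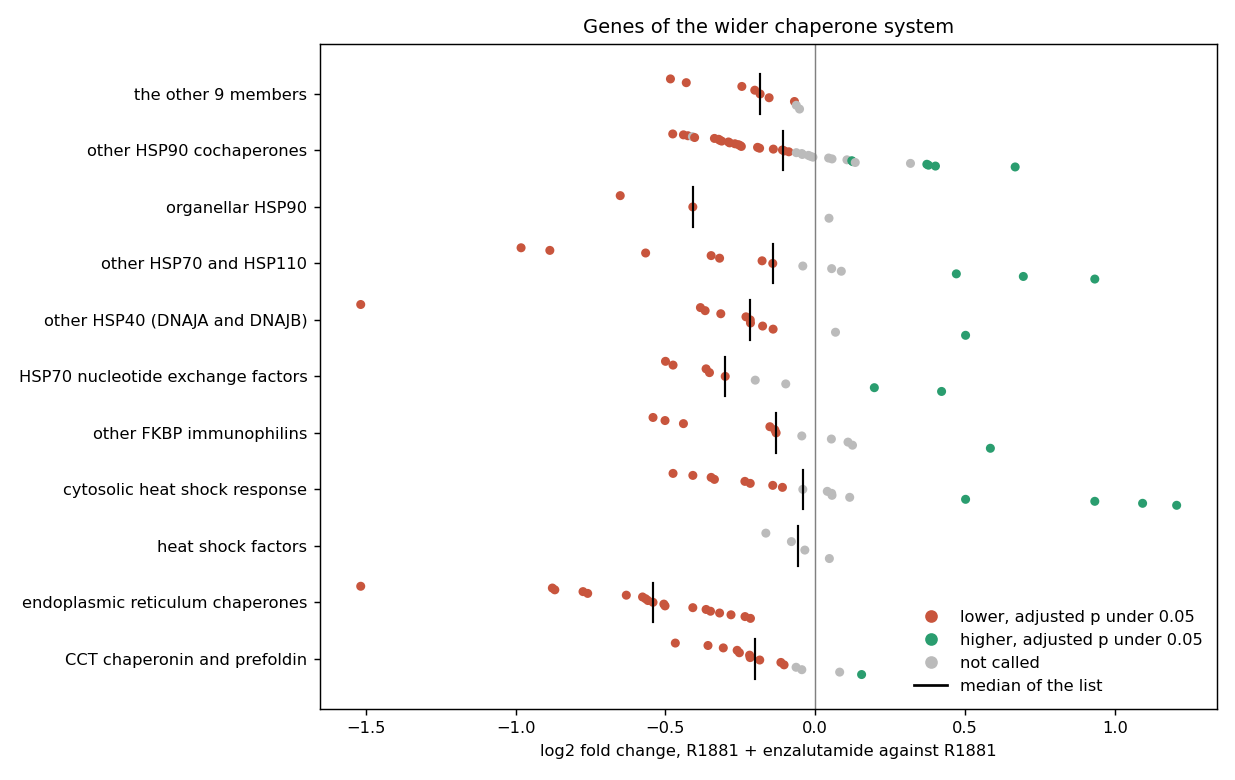
Log2 fold change (horizontal axis) of each gene of the chaperone lists, R1881 + enzalutamide against R1881, with lower and higher calls by limma in colour, uncalled genes in grey and the median of each list as a bar. The 19 endoplasmic reticulum genes all lie left of 0, the 38 other HSP90 cochaperones spread from -0.48 to 0.67, and the lowest point is DNAJB9 at -1.52, against -4.99 for FKBP5, which is not drawn.

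Among the receptors served by this machinery, NR3C1, the glucocorticoid receptor, was at 0.141 ± 0.0481 CPM with R1881 and 2.01 ± 0.353 CPM with enzalutamide. NR3C2, the mineralocorticoid receptor, had a log2 fold change of 0.08 and was not called (adjusted p = 0.349 by limma), while with library totals set to 1000000 it was 0.17 (adjusted p = 0.0447). Of 9 tested genes that androgens and glucocorticoids both regulate, 6 were lower and 2 higher, with a median of -1.37 (5 and 2 with library totals set to 1000000). ERRFI1 had -2.40, SGK1 -2.38 and ZBTB16 -1.90, whereas TSC22D3 (GILZ) rose by 0.57 and DUSP1 by 0.41. FKBP5 thus moved with ERRFI1, SGK1 and ZBTB16 and opposite to TSC22D3 and DUSP1.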

How the data were processed

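Per the labels and the methods, polyadenylated RNA (stranded kit, single-end reads) was processed with bcl2fastq 2.17, STAR (GRCh38) and featureCounts. The authors deposited a normalized signal per gene, called CPM. Not given in the sources used here: other tool versions, the annotation, strand use in counting, the gene filter and the scaling rule. The methods give the replicate numbers the other way round, and the labels were followed. Whole reads were recovered for 100% of values (tolerance 0.01 reads). Sampling noise was exceeded in all 55 pairs of libraries sharing a treatment (chi-square per degree of freedom at least 1.62). Columns without a sample numbered 0.

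The main test was limma 3.58.1 (R 4.3.3) with a mean-variance trend on log2(CPM + 0.5) for the 17046 genes averaging 0.5 CPM or more, with Benjamini-Hochberg adjustment over all of them and a threshold of 0.05. Fold changes are on this scale and understate those of low genes. The recovered reads were tested with edgeR 4.0.16 (quasi-likelihood, 4947 genes lower and 5796 higher) and DESeq2 1.42.0. Limma had been planned for CPM-like values and was kept. Ratios used exact permutation tests. Other alternatives were the pseudocount, filter, scaling, replicate block, each R1881 series and each library left out. Pseudogene rows added to their gene, the joint removal of 2 libraries, the block on the last digit and the search for the androgen response element across genes were added after the values were seen. The limma and edgeR fits were tested on simulated reads with few changed genes and no shift in scaling. That simulation therefore does not cover the effect of the scaling on the calls.

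The 10 genes and all lists were chosen with earlier results of these data known. Named genes are the 10, up to 3 called genes at either end of each list, all receptors and check genes, and the 5 genes most like FKBP5. Some genes that this rule names are not reported here. In 1 list AHSA2P and TOMM70 were matched by older symbols. Positions and exon lengths are from GENCODE on GRCh38, promoters from RefSeq (GRCh38.p14). FKBP4 and ST13 have no promoter entry.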

Additional observations from a re-analysis of the deposited data

Results flagged for a closer look

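A single library stood apart from the rest of its treatment group in 2 of 30 groups of values examined, where chance gives about 1 in 20, or 1.5. The level of DNAJA1 in R1881 + enzalutamide replicate 2 was 300.3 CPM, and the nearest library of the group was at 328 CPM, a gap of 0.832 of the whole range of the 5 libraries (critical value 0.71). The level of BAG1 in R1881 replicate 7 was 65.9 CPM, and the nearest library was at 58.6 CPM, a gap of 0.757 of the range of the 10 libraries (critical value 0.466). Both genes remained lower with enzalutamide by limma without the library in question.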

How the results depend on the processing

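Single-gene values and counts of called genes were recomputed under the alternatives and labelled together. Of these, 2972 were labelled unchanged, 26 genes' values lost a call, 9 gained one, 44 counts moved beyond a set factor and 1 called gene turned in sign. Uncalled genes whose sign turned without a call were labelled unchanged, as were HSP90AA1 (0.03) and ST13 (0.04) with library totals set to 1000000. The one that turned was HSP90AB1, at 0.024 on the log2 scale with library totals set to 1000000. The replicate numbers in the sample titles did not pair libraries across treatments (correlations of deviations -0.11 to 0.13). Taken over all libraries, nor did the last digit of the other number (-0.11 to 0.84 for 71 to 75 with 81 to 85, and -0.64 to 0.68 for 51 to 55 with 81 to 85). The highest value was for 73 with 83, the low libraries R1881 replicate 6 and R1881 + enzalutamide replicate 2. With a replicate block over the 5 shared title numbers the log2 ratio differences were -4.81 for FKBP5 over FKBP4, -0.43 for STIP1 over ST13 and -0.38 for PTGES3 over HSP90AB1, and with a block on the last digit, chosen after seeing the data, -4.85, -0.38 and -0.41, each at an exact permutation p of 0.0625, the smallest that 5 pairs allow. Both blocks left the calls of the other 9 genes as they were and lost that of HSP90AB1 (adjusted p = 0.132 and 0.0518 by limma). Against R1881 libraries 51 to 55 alone, HSPA4 over DNAJA1 had a difference of -0.065 (exact permutation p = 0.0159). Between the R1881 series, the chaperones called numbered 2 with library totals set to 1000000, 1 with TMM factors, 2 with edgeR, and 0 to 1 with a library left out, 1 of them without R1881 replicate 1. Other causes of these differences were not tested. Precision is limited by 10 and 5 libraries, by a scaling rule that shifts small differences by 0.09, and by counting error where reads are few.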
